A study of Rattus norvegicus with 8 samples.

Results

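Transcripts of 10 genes of the NRF2, antioxidant and thioredoxin system were followed in primary rat nucleus pulposus (NP) cells with and without knockdown of Sirt6. The genes were Nfe2l2, Keap1, Hmox1, Nqo1, Gclc, Gclm, Txnrd1, Txnip, Sod2 and Cat, which were taken by gene symbol, from a list drawn up with earlier results of these data known. All 10 passed the filter on low counts and belonged to 13250 genes tested. NP cells form the soft centre of the intervertebral disc, a tissue with no blood vessels. Both groups were cells of adult Sprague Dawley rats, kept in DMEM with 10% serum and antibiotics and selected with puromycin after lentiviral transduction. The Sirt6-Ctrl group (libraries S1 to S4) received ShCtrl, a control short hairpin RNA. The Sirt6-KD group (libraries S5 to S8) received ShSirt6 as a mixture of several hairpin clones, so the cells are a selected pool with a partial loss of the transcript and not a deletion. The series text speaks of 4 rats and of respective controls, but no label ties a library to a rat, and the comparison below is unpaired with n = 4 per group. SIRT6 is a NAD-dependent deacetylase that acts on histones.

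NRF2, the protein encoded by Nfe2l2, is a transcription factor that is held at a low level by KEAP1, an adaptor that passes it to a ubiquitin ligase. Oxidants and electrophiles modify KEAP1, NRF2 then accumulates, pairs with small MAF proteins and binds antioxidant response elements beside genes for glutathione synthesis, quinone reduction, heme breakdown and the thioredoxin system. The NP is poorly oxygenated and rich in lactate, and its cells face oxidants as the disc ages. NRF2 is regulated largely at the protein level, which RNA counts do not measure.

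The Sirt6 transcript, the target of the hairpins, measured 56.4, 54.3, 52.5 and 47.6 CPM (read counts per library size, scaled by TMM) in S1 to S4. In S5 to S8 it measured 21.8, 21.0, 19.2 and 20.6 CPM. The Sirt6-KD libraries were thus all below the Sirt6-Ctrl libraries, with a fall of 2.55-fold (log2 fold change -1.35, SE 0.13, edgeR quasi-likelihood test, Benjamini-Hochberg adjusted p = 0.000713). Under the spike-in scaling described below, the log2 fold change of Sirt6 was -0.36 and not called (edgeR adjusted p = 0.567). Relative to the median of all genes on that scale it was -1.31.

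Antioxidant response elements were looked for in RefSeq promoter windows on the rat build GRCr8, since they are the sites through which NRF2 is known to act. Each window was searched over the 250 bases before an annotated start, and 8 of the 10 genes had 1 or more windows, giving 9 windows in all. Hmox1 and Txnip had none. Sequence further away was not searched, so a window without a match does not show that a gene lacks an element. The core TGACNNNGC, searched on both strands, was in 3 windows (Gclm, 1 of 2 windows of Txnrd1, and Sod2), and it was in 10.08% of all 33469 windows. The looser form TGANNNNGC, which every match of the core also meets, was also in the windows of Keap1 and Nqo1, making 5 windows, beside 34.7% of all windows. CACGTG, the E-box, and ACGTG, a form of the core of the hypoxia response element that CACGTG contains, were in 0 of the 9 windows, beside 5.59% and 16.57% of all windows. The other form of that core, GCGTG, was not searched for. The 5 stretches below show the match in capitals with its flanks, 5′ to 3′ on the strand of the gene. They are shown because they hold the letters that NRF2 targets are searched for, and a match is not evidence of binding.
Gclm, chr2:213031933-213032001, plus strand: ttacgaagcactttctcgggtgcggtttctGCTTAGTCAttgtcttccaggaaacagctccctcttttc
Txnrd1, chr7:22755944-22756012, minus strand: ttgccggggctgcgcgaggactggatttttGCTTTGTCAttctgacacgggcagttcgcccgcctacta
Sod2, chr1:50050169-50050233, minus strand: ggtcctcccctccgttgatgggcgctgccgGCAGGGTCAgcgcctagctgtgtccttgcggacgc
Nqo1, chr19:52220279-52220347, minus strand: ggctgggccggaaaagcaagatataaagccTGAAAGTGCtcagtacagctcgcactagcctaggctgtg
Keap1, chr8:28054043-28054104, minus strand: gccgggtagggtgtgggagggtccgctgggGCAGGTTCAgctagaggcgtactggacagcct
In Gclm, Txnrd1, Sod2 and Keap1 the match lay on the opposite strand, so the capitals read as the reverse complement of the motif. The matches of Keap1, Nqo1 and Sod2 began within 50 bases of the start, that of Txnrd1 at 78 bases and that of Gclm at 172 bases before it. The 5 genes with a match did not move one way, since with TMM Gclm, Keap1 and Nqo1 were called lower, Sod2 was called higher and Txnrd1 was not called.

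Of the 10 genes, 2 were called higher in Sirt6-KD cells (Gclc and Sod2) and 3 lower (Keap1, Nqo1 and Gclm). A call required an adjusted p under 0.05 and more than a 1.5-fold difference. Among all 13250 genes tested, 8.02% were called higher and 10.7% lower. The groups did not overlap for 6 of the 10 genes, which are the 5 called genes and Cat, beside 30.4% of all genes. DESeq2 and limma-voom made the same number of calls, 2 higher and 3 lower. Over all genes DESeq2 called 1606 higher and 1734 lower of 14517, and limma-voom 1591 and 1309 of 13250. The 10 log2 fold changes had a median of 0.07, and those of all genes one of -0.02. Calls for 5 of the 10 genes thus lay on both sides of 0, beside 18.7% of all genes in either direction, and no test was made of the 10 genes as a group.

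The libraries held 31994838 to 40124813 counts, and 3 counts corresponded to 0.0727 to 0.0928 CPM, far below the level of any of the 10 genes. S1 and S2 stood apart from the other libraries in the share of counts from ERCC spike-in RNA, at 6.27% and 9.80%, against 2.97% to 3.08% in S3 and S4 and 2.15% to 2.47% in Sirt6-KD. Scaling by the spike-ins instead of TMM raised the median difference over all genes to 0.94 on the log2 scale and left 20 genes higher and 4 lower, against 1063 higher and 1416 lower with TMM. On that scale 0 of the 10 genes were called by edgeR, while 6 were higher and 0 lower at an unadjusted p under 0.05. The share of all genes at that unadjusted cut-off is not given. With the median of all genes at 0.94, this count is no result about the 10 genes. A correction for gene length gave 647 higher and 1667 lower. Each named result is therefore given also without S1 and S2 where its call changes, and a fold change is relative to the bulk of the transcriptome and not an amount per cell. Fewer cells of one type and less RNA per cell cannot be told apart in such bulk libraries. The NP markers Krt8 and Cd24 were detected in every library, Foxa2 was between 0 and 1.67 CPM, and the 3 markers found of 8 listed summed to between 23.8 and 61.6 CPM across Sirt6-Ctrl and to between 17.7 and 32.3 CPM across Sirt6-KD. Col1a1 dominated the fibroblast list, whose sums ran from 13586 to 25896 CPM across Sirt6-Ctrl and from 8166 to 17821 CPM across Sirt6-KD. The corresponding sums were 29.7 to 84.5 and 24.0 to 37.6 CPM for chondrocyte-like matrix genes, and 11.9 to 29.7 and 15.0 to 23.8 CPM for leukocyte genes, most of it Cd14. The part of these shifts in the results below was not tested.

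**Figure D1:**
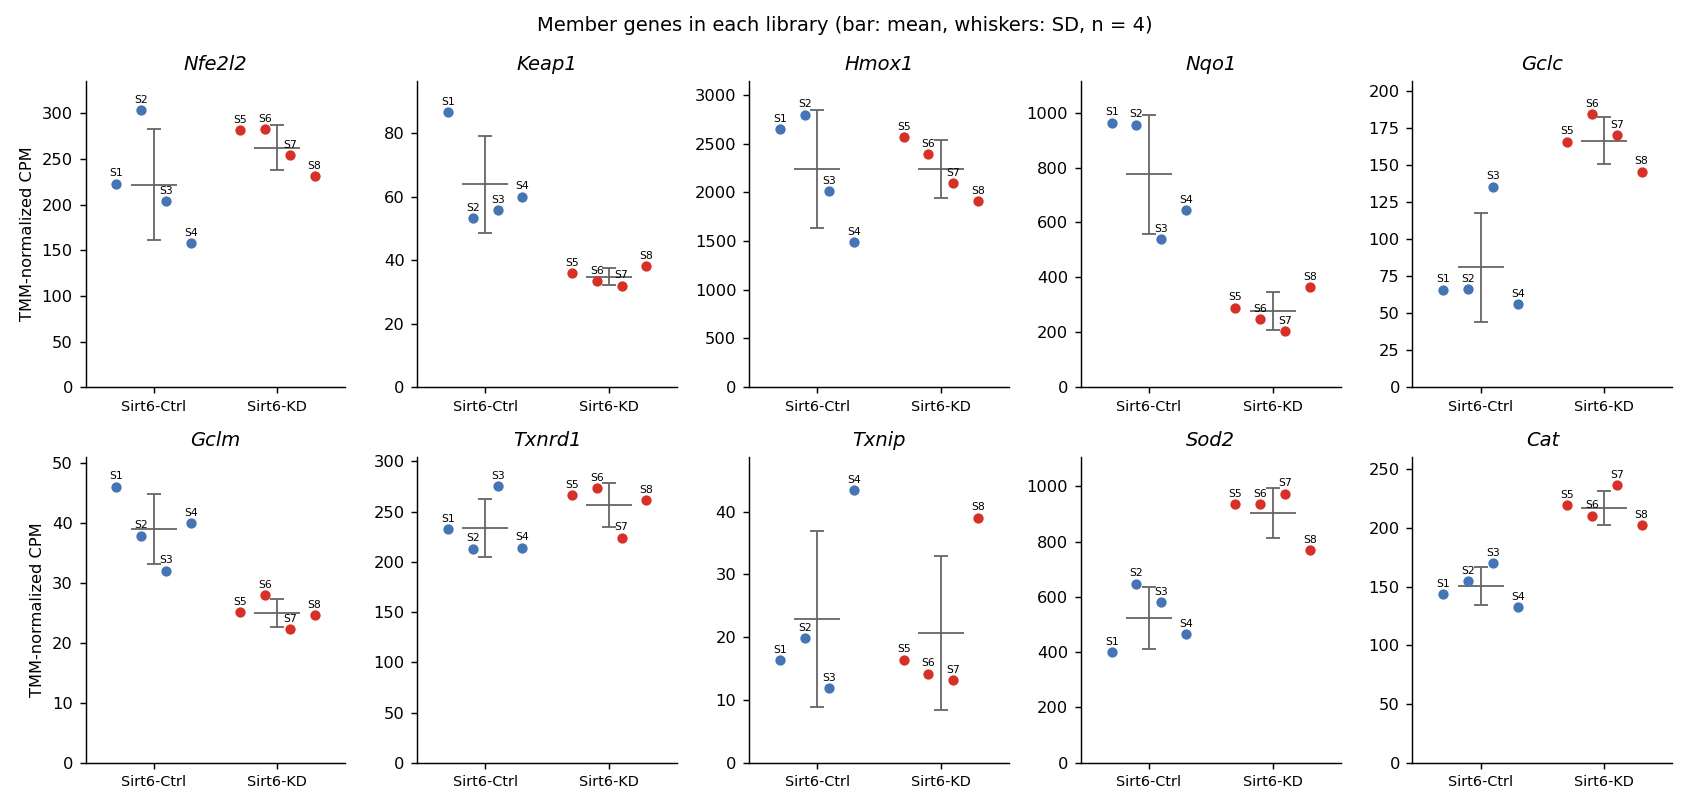
TMM-normalized CPM of the 10 genes (vertical axes, from 0, 1 scale per gene) in the 4 Sirt6-Ctrl libraries (blue, S1 to S4) and the 4 Sirt6-KD libraries (red, S5 to S8), with the mean as a bar and the SD as whiskers. Points of the groups do not overlap for Keap1, Nqo1, Gclc, Gclm, Sod2 and Cat, while S4 and S8 stand high for Txnip and S3 stands high among the Sirt6-Ctrl libraries for Gclc.

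Nfe2l2 (ENSRNOG00000001548), which encodes NRF2 itself, was not called. It measured 223, 303, 204 and 157 CPM in S1 to S4 and 282, 283, 254 and 232 CPM in S5 to S8. The Sirt6-Ctrl libraries spanned the whole range of the Sirt6-KD libraries, with S2 highest and S4 lowest of all 8. The log2 fold change was 0.24 (SE 0.19, 95% interval -0.17 to 0.66, adjusted p = 0.381). Without S1 and S2 it was 0.55 with an adjusted p of 0.0431 by the same edgeR test, still under the 1.5-fold threshold.

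Keap1 (ENSRNOG00000020878), the inhibitor of NRF2, was lower in Sirt6-KD cells. It measured 86.5, 53.2, 55.7 and 60.0 CPM in S1 to S4. In S5 to S8 it measured 35.9, 33.3, 31.9 and 38.1 CPM. Every Sirt6-KD library was below every Sirt6-Ctrl library, and S1 was the highest. From a mean of 63.8 ± 15.4 CPM (SD over 4 libraries) Keap1 went to 34.8 ± 2.72 CPM, a fall of 1.84-fold (log2 fold change -0.88, SE 0.18, edgeR adjusted p = 0.00904). Without S1 and S2 the log2 fold change was -0.72 and the call held (edgeR adjusted p = 0.0115), whereas with spike-in scaling it was 0.12 and not called, that is -0.82 relative to the median of all genes on that scale. Keap1, Nqo1 and Sod2 stayed called when any single library was left out.

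Hmox1 (ENSRNOG00000014117), the inducible enzyme that breaks down heme, was not called and had nearly equal means. Its levels were 2649.9, 2799.7, 2014 and 1486 CPM in S1 to S4 and 2572, 2389.7, 2095 and 1911 CPM in S5 to S8. The Sirt6-KD libraries all lay inside the range of the Sirt6-Ctrl libraries. The means were 2238 ± 606 and 2242 ± 295 CPM, and the 95% interval of the log2 fold change ran from -0.46 to 0.46 (adjusted p = 0.995). A difference inside that interval was not excluded by these libraries.

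Nqo1 (ENSRNOG00000012772), a quinone reductase that spends NADPH or NADH and is a widely used readout of NRF2 activity, had the largest difference of the 10 genes. It measured 964, 956, 538 and 645 CPM in S1 to S4. In S5 to S8 it measured 290.1, 249, 204 and 365 CPM. All Sirt6-KD libraries were below all Sirt6-Ctrl libraries, and within Sirt6-Ctrl S1 and S2 were the higher pair. The mean fell from 776 ± 218 to 277 ± 68.6 CPM, or 2.80-fold (log2 fold change -1.49, SE 0.24, 95% interval -2.01 to -0.96, edgeR adjusted p = 0.00435). The absolute log2 fold change exceeded that of 91.7% of the genes tested. Without S1 and S2 it was -1.08 (edgeR adjusted p = 0.0147), and with spike-in scaling it was -0.35 and not called.

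Gclc and Gclm encode the catalytic and the modifier subunit of glutamate-cysteine ligase, the rate-limiting enzyme of glutathione synthesis, and with TMM they moved in opposite directions, whereas with spike-in scaling both were positive (1.87 and 0.36) and not called. Gclc (ENSRNOG00000006302) measured 65.8, 66.1, 135 and 55.9 CPM in S1 to S4 and 166, 184, 170.0 and 145 CPM in S5 to S8. S3 was near the lowest Sirt6-KD library, and the other 3 Sirt6-Ctrl libraries were far below. Gclc rose 2.06-fold, from 80.8 ± 36.6 to 166 ± 16.1 CPM (log2 fold change 1.04, SE 0.25, edgeR adjusted p = 0.0185). The call was lost without S1, S5, S6 or S7 (edgeR adjusted p = 0.0508 to 0.0612) and without both S1 and S2 (log2 fold change 0.81, edgeR adjusted p = 0.105).

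Gclm (ENSRNOG00000013409) measured 46.1, 37.9, 32.1 and 39.9 CPM in S1 to S4 and 25.2, 27.9, 22.3 and 24.7 CPM in S5 to S8. The groups did not overlap, with S3 the Sirt6-Ctrl library nearest to Sirt6-KD. The means were 39.0 ± 5.79 and 25.0 ± 2.31 CPM, a fall of 1.56-fold, close to the threshold (log2 fold change -0.64, SE 0.16, edgeR adjusted p = 0.0197). The call was lost without S1, S5, S7 or S8 (edgeR adjusted p = 0.0604 to 0.0699) and without both S1 and S2 (log2 fold change -0.51, edgeR adjusted p = 0.0595), and spike-in scaling gave 0.36, or -0.59 relative to the median of all genes.

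Because each library carries its own scaling, the 2 subunits were also set against each other within a library, a measure chosen after their values were seen and given without a test. The ratio of Gclc to Gclm raw counts was 1.43, 1.75, 4.22 and 1.40 in S1 to S4. In S5 to S8 it was 6.58, 6.60, 7.63 and 5.89. No Sirt6-KD library came as low as the highest Sirt6-Ctrl library, S3, and no choice of library scaling alters such a ratio. With neither subunit overlapping in CPM and the 2 moving in opposite directions, this separation was bound to follow and adds no support. It does not compare the amounts of the 2 transcripts, because transcript lengths were not used. The ratio of Nfe2l2 to Keap1 was 2.58, 5.70, 3.66 and 2.62 in S1 to S4 and 7.86, 8.51, 7.96 and 6.09 in S5 to S8. It too was higher in every Sirt6-KD library, with S2 and S8 closest to each other. The ratio of Sod2 to Sod1, the mitochondrial against the cytosolic superoxide dismutase, was 0.884 to 2.40 in Sirt6-Ctrl and 3.56 to 4.60 in Sirt6-KD. These further pairs were also picked and not planned, and the share of other gene pairs that would separate likewise was not computed.

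**Figure D2:**
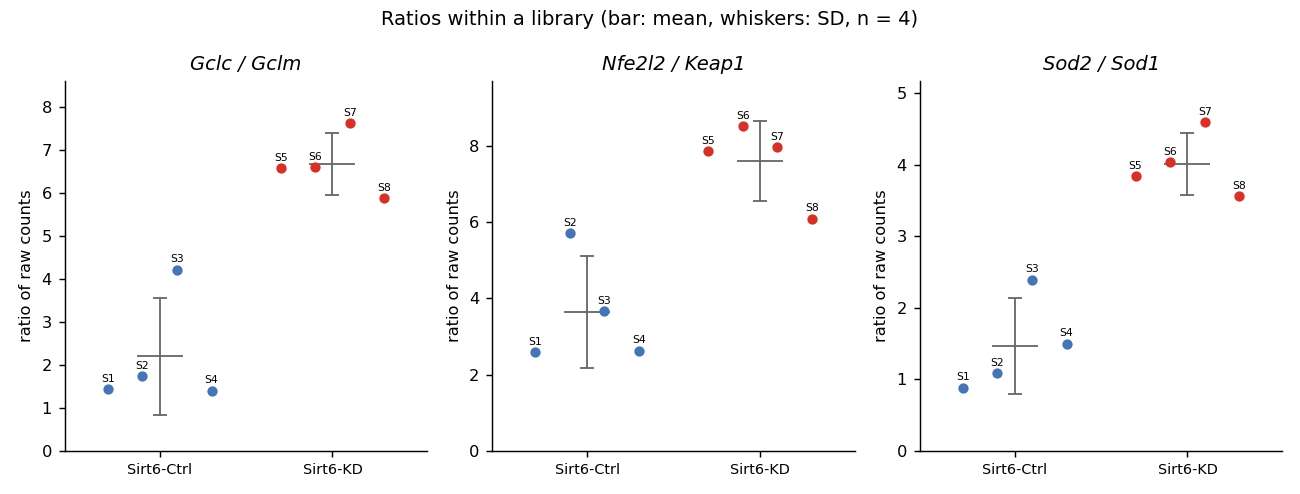
Ratio of raw counts within each library (vertical axes, from 0, no unit) for Gclc over Gclm, Nfe2l2 over Keap1 and Sod2 over Sod1, with the mean as a bar and the SD as whiskers over 4 libraries. In the 3 panels every Sirt6-KD library (red) lies above every Sirt6-Ctrl library (blue), and the nearest pairs are S3 and S8 for Gclc over Gclm and for Sod2 over Sod1, and S2 and S8 for Nfe2l2 over Keap1.

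Txnrd1 (ENSRNOG00000009088), the cytosolic thioredoxin reductase that spends NADPH to keep thioredoxin reduced, was not called. Its levels were 233, 213, 275 and 214 CPM in S1 to S4 and 266, 274, 224 and 261 CPM in S5 to S8. The groups overlapped, and the highest of the 8 libraries, S3, was a Sirt6-Ctrl library. The log2 fold change was 0.13 with a 95% interval from -0.16 to 0.42 (SE 0.13, adjusted p = 0.508), and it was -0.32 after the correction for gene length, also not called.

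Txnip (ENSRNOG00000021201), an arrestin-like protein that binds and inhibits thioredoxin and restrains glucose uptake, varied more between libraries of a group than between groups. It measured 16.4, 19.8, 12.0 and 43.4 CPM in S1 to S4 and 16.4, 14.2, 13.2 and 39.0 CPM in S5 to S8. In each group 1 library, S4 and S8, stood well above the other 3, and these carried a coefficient of variation of 61.4% and 59.4%. The log2 fold change of -0.14 (SE 0.45, 95% interval -1.14 to 0.85, adjusted p = 0.850) had an interval that reached far to both sides of 0. Leaving out S4 gave 0.37 and leaving out S8 gave -0.61, neither of them called.

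Sod2 (ENSRNOG00000019048), the manganese superoxide dismutase of mitochondria, was higher in Sirt6-KD cells. It measured 399.5, 648, 581 and 465 CPM in S1 to S4. In S5 to S8 it measured 937, 936, 973 and 770.1 CPM. The lowest Sirt6-KD library, S8, was above the highest Sirt6-Ctrl library, S2. The mean rose 1.73-fold, from 523 ± 112 to 904 ± 90.9 CPM (log2 fold change 0.79, SE 0.17, edgeR adjusted p = 0.0123), and the call held without S1 and S2 (log2 fold change 0.80, edgeR adjusted p = 0.0134). With spike-in scaling the value was 1.77 and not called (edgeR adjusted p = 0.0744).

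Cat (ENSRNOG00000008364), the peroxisomal enzyme that splits hydrogen peroxide, measured 143, 155, 170.3 and 133 CPM in S1 to S4 and 219.7, 210.5, 236 and 203 CPM in S5 to S8. The groups did not overlap, and the spread inside each was small. The means were 150.3 ± 16.1 and 217 ± 14.4 CPM, a ratio of 1.45 from the fit (log2 fold change 0.53, SE 0.12, edgeR adjusted p = 0.0150). Cat thus passed the adjusted p and stayed just under the fold threshold, which Gclm just passed. It was called when S3 or S8 was left out (log2 fold changes 0.60 and 0.60), and it missed the adjusted p without S5 (0.0508), without S7 (0.0565) and after the correction for gene length (0.36, adjusted p = 0.107). For all 10 genes the coefficient of variation was larger in Sirt6-Ctrl, 10.7% to 61.4%, than in Sirt6-KD, 6.64% to 59.4%. Across all genes the replicate libraries were also less alike in Sirt6-Ctrl, with correlations of log2 CPM across genes of 0.889 to 0.941 against 0.966 to 0.972, where genes are not independent replicates.

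**Figure D3:**
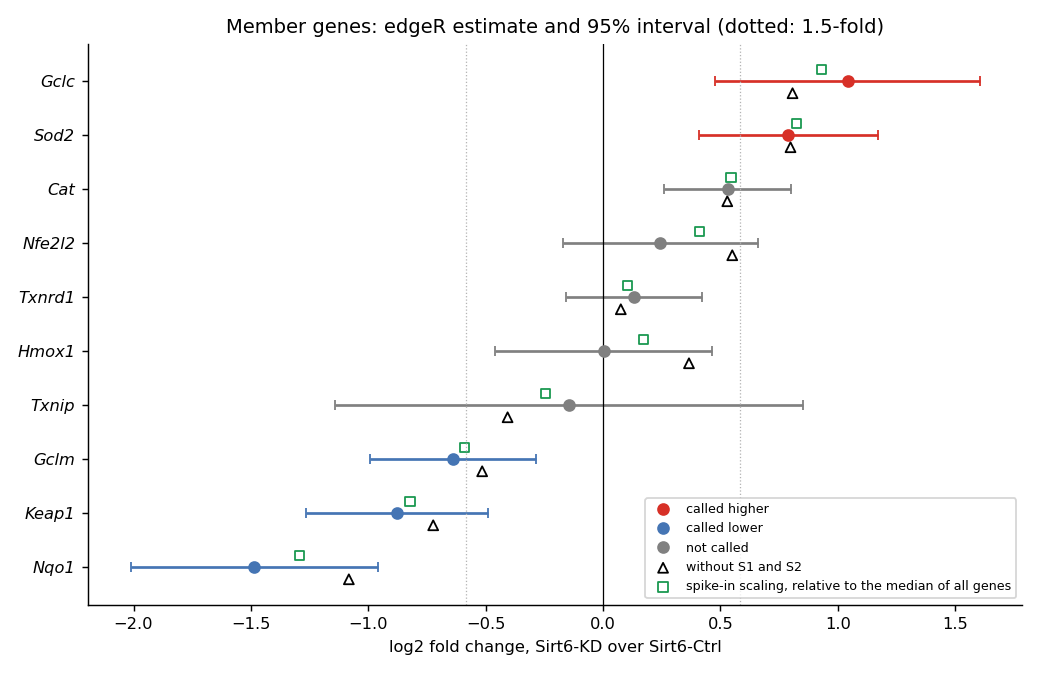
Differences on the log2 scale between Sirt6-KD and Sirt6-Ctrl for the 10 genes (horizontal axis, positive where Sirt6-KD is higher), as the edgeR estimate (filled circle) with its 95% interval (line), without S1 and S2 (triangle), and with spike-in scaling after subtraction of the median of all genes (square). Nqo1 at -1.49 and Gclc at 1.04 are the extremes, and on the spike-in scale Keap1, Gclm and Txnip are positive before that subtraction.

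The other genes of the pathway were taken as 10 lists by role, in which 123 genes were found by name and tested. Over the 10 lists 12 genes were called higher and 21 lower, or 9.76% and 17.1%, with a median log2 fold change of -0.17 beside -0.02 for all genes. The shares among all genes, 8.02% higher and 10.7% lower, are the background of this count and of the edgeR count in each list below. DESeq2 called 15 higher and 24 lower, beside 1606 and 1734 of 14517 genes tested. The limma-voom counts were 13 and 21, beside 1591 and 1309 of 13250. These are the background of the DESeq2 and voom counts in each list below. Counts at an unadjusted p are given without the share of all genes at that cut-off, so no result about a list is read from them. The counts moved when libraries were left out. The edgeR test called 5 higher and 8 lower without S1 and S2, 2 and 9 without S1, 10 and 12 without S2, 13 and 29 without S3, 11 and 21 without S4, 3 and 9 without S5, 2 and 8 without S6, 2 and 9 without S7, and 5 and 16 without S8. The counts over all genes moved too. They were 810 and 709 of 14177 genes without S1 and S2, and 552 and 777 of 13605 without S1. Without S2 they were 1171 and 1152 of 13689, without S3 1699 and 1913 of 13562, and without S4 1096 and 1481 of 13542. Without S5 they were 491 and 791 of 13612, and without S6 445 and 700 of 13585. Without S7 they were 477 and 759 of 13544, and without S8 736 and 985 of 13588. Of the 32 called genes named by rule below, 10 stayed called whichever single library was left out, namely Slc7a11, Akr1b8, Syvn1, Gpx3, Txn2, Glrx5, Idh1, Me1, Taldo1 and Park7, and the other 22 lost the call in 1 or more such fits. With spike-in scaling 2 genes were called higher, Slc7a11 and Akr1b8, and 0 lower, with 44 higher and 0 lower at an unadjusted p under 0.05. Over all 13250 genes 20 were called higher and 4 lower on that scale, where the median was 0.94. After the correction for gene length 4 list genes were called higher and 20 lower, beside 647 and 1667 of all genes.

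Among the regulators and partners of NRF2, 1 of 15 genes was called higher and 3 lower. Bach1, a repressor that competes with NRF2 for the same elements, measured 11.8, 4.82, 28.9 and 12.3 CPM in S1 to S4 and 41.2, 40.1, 54.5 and 35.6 CPM in S5 to S8. It was 2.97-fold higher without overlap of the groups (log2 fold change 1.57, SE 0.43, edgeR adjusted p = 0.0273), and the call was lost without S1 and S2 (1.07, edgeR adjusted p = 0.0620). Syvn1, an endoplasmic reticulum ubiquitin ligase that can degrade NRF2, fell from 106 ± 13.2 to 49.5 ± 3.10 CPM (log2 fold change -1.11, edgeR adjusted p = 0.00149) and stayed called without S1 and S2. Rbx1, the RING subunit of the KEAP1 ubiquitin ligase, had a log2 fold change of -0.90, and Sqstm1, the autophagy receptor p62 that sequesters KEAP1, one of -0.73. Both were called with TMM but not without S1 and S2, and with spike-in scaling both were positive. Cul3, the scaffold of that ligase, passed the adjusted p and not the fold threshold (log2 fold change -0.50, edgeR adjusted p = 0.0296), and its groups did not overlap. The small MAF genes Maff, Mafg and Mafk were not called, with edgeR adjusted p of 0.183 to 0.789 and overlapping groups. These 4 genes are named outside the rule.

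Among the genes of heme breakdown and iron handling, 1 of 9 was higher and 2 were lower. Steap3, a metal reductase of endosomes, had a log2 fold change of 0.93 and stayed called without S1 and S2, but not without S1, S5, S6 or S7 alone (edgeR adjusted p = 0.0734 to 0.0890) nor after the correction for gene length (0.61, edgeR adjusted p = 0.191). Ftl1, the ferritin light chain, measured 9225, 11939.9, 4859 and 4959.6 CPM in S1 to S4 and 4589, 4250.2, 3613 and 4140.3 CPM in S5 to S8. S1 and S2 were high while S3 and S4 were close to Sirt6-KD, and its log2 fold change went from -0.90 (edgeR adjusted p = 0.0456) to -0.23 without S1 and S2 (edgeR adjusted p = 0.228), and to 0.36 with spike-in scaling. Ftl1, Txn1 and Prdx1 have near-identical processed copies in rodent genomes, so their counts are uncertain. Blvrb, a biliverdin reductase, had a log2 fold change of -0.69 that was likewise lost without S1 and S2 and positive with spike-in scaling.

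The enzymes of quinone and carbonyl detoxification held 3 genes called higher and 2 lower of 15. Akr1b8, an aldo-keto reductase, measured 302, 285, 271 and 103 CPM in S1 to S4 and 769, 717, 626 and 593 CPM in S5 to S8. It thus was 2.81-fold higher while the quinone reductase Nqo1 was 2.80-fold lower, and it stayed called without S1 and S2 (log2 fold change 1.49 with all libraries and 1.86 without these, edgeR adjusted p = 0.00810 and 0.0133). Abcc4, an export pump, and Ugdh, which makes UDP-glucuronic acid, had log2 fold changes of 0.60 and 0.59, just above the threshold, and were not called without S1 and S2. Cbr3, a carbonyl reductase, and Akr1a1, an aldehyde reductase, had log2 fold changes of -0.89 and -0.61, and both lost the call without S1 and S2 and were positive with spike-in scaling.

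Among genes of glutathione synthesis, cystine import and turnover, 1 of 12 was called higher and 0 lower by edgeR, with 2 higher and 3 lower at an unadjusted p under 0.05 (DESeq2 called 2 and 0, voom 1 and 0). Slc7a11, the cystine importer xCT, measured 71.4, 68.1, 60.0 and 21.4 CPM in S1 to S4 and 179.6, 199, 186 and 155 CPM in S5 to S8. It rose 3.26-fold (log2 fold change 1.70, SE 0.31, edgeR adjusted p = 0.00655) and stayed called without S1 and S2 (2.15, edgeR adjusted p = 0.0104) and with spike-in scaling (2.85, edgeR adjusted p = 0.0345), although not after the correction for gene length (1.05, edgeR adjusted p = 0.0765). It was the gene called. Slc3a2, its partner chain, Gss, the glutathione synthetase, and Gsr, the glutathione reductase, had log2 fold changes of -0.17, -0.57 and -0.43 and were not called. They too are named outside the rule, and the list held 7 positive and 5 negative log2 fold changes.

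Of 19 glutathione peroxidases and transferases, 0 were higher and 3 were lower by edgeR, DESeq2 and voom alike, and at an unadjusted p under 0.05 0 were higher and 4 lower. Without S1 and S2 edgeR called 1 higher and 1 lower, and with spike-in scaling 0 and 0, with 6 higher and 0 lower at an unadjusted p under 0.05. The 3 called with all libraries and TMM were peroxidases. Gpx3, the secreted peroxidase, measured 628, 672, 389 and 559 CPM in S1 to S4 and 177, 181, 240.0 and 236 CPM in S5 to S8. It fell 2.70-fold (log2 fold change -1.43, edgeR adjusted p = 0.00249) and stayed called without S1 and S2 (-1.17). Gpx4, which reduces lipid peroxides, and Gpx1, the abundant cytosolic peroxidase, had log2 fold changes of -0.91 and -0.88, lost their calls without S1 and S2 (-0.42 and -0.51), and were positive with spike-in scaling.

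Of 19 thioredoxins, peroxiredoxins, glutaredoxins and methionine sulfoxide reductases, 1 was higher and 5 were lower. Txn1, the cytosolic thioredoxin and substrate of Txnrd1, measured 259, 254, 187 and 216 CPM in S1 to S4 and 148, 146, 119.6 and 172 CPM in S5 to S8. The groups did not overlap, although S3 and S8 were close (log2 fold change -0.65, edgeR adjusted p = 0.0170), and without S1 and S2 the value was -0.45 and not called. Txn2, the mitochondrial thioredoxin, fell 2.82-fold, from 195 ± 65.6 to 69.4 ± 6.66 CPM, and was called also without S1 and S2 (log2 fold change -1.49 and -1.05). The mitochondrial Glrx5, which serves iron-sulfur cluster assembly, and Msrb2, a mitochondrial methionine sulfoxide reductase, had log2 fold changes of -1.30 and -1.28. Glrx5 stayed called without S1 and S2, and Msrb2 did not. The fifth gene called lower, Glrx3, is named after its value was seen (-0.70), and without S1 and S2 it was -0.38 and not called. Msrb3 was the gene called higher (0.63), and it lost the call without S1 and S2 (0.34, edgeR adjusted p = 0.109) and without any single library other than S3 or S4. Prdx1, the cytosolic peroxiredoxin, had 813 ± 211 and 576 ± 20.8 CPM and was not called (log2 fold change -0.50, edgeR adjusted p = 0.0725). It was called lower without S3 (-0.60) or S4 (-0.59), and was -0.15 without S1 and S2. With spike-in scaling Txn1, Glrx3 and Prdx1 were positive, at 0.40, 0.41 and 0.63.

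Among the arrestin relatives and regulators of Txnip, 2 of 10 were higher and 0 lower by edgeR, with 4 and 1 at an unadjusted p under 0.05, and DESeq2 and voom each called 3 and 0. Arrdc3, an arrestin of the same family, measured 10.6, 12.8, 33.0 and 13.8 CPM in S1 to S4 and between 37.0 and 71.3 CPM in Sirt6-KD. Its groups did not overlap, and it was 2.82-fold higher (edgeR adjusted p = 0.0183), and it was not called without S1 and S2 (1.09). Mlxip, a glucose-sensing transcription factor that drives Txnip, had a log2 fold change of 0.78, lost without S1 and S2 (0.60). The difference between Txnip and these genes was not tested.

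The list of NADPH suppliers and enzymes of the same pathways held 2 genes called higher and 3 lower of 10. NADPH is what the thioredoxin and glutathione reductases spend. Not every enzyme listed makes NADPH itself, and Taldo1, a transaldolase, does not. The cytosolic enzymes Idh1, Me1 and Taldo1 had log2 fold changes of -1.07, -0.85 and -1.11, and stayed called without S1 and S2 (-0.99, -0.65 and -0.69). On the spike-in scale Me1 and Taldo1 were positive and Idh1 was -0.08. Idh2, the mitochondrial counterpart of Idh1, and H6pd, which makes NADPH in the endoplasmic reticulum, had log2 fold changes of 0.74 and 0.99, and H6pd lost its call without S1 and S2. Idh2 kept its call there, but lost it in 7 of the 8 fits that left out a single library, all but that without S2 (edgeR adjusted p = 0.0645 to 0.107), and after the correction for gene length (0.67, edgeR adjusted p = 0.0859).

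Of 7 superoxide dismutase partners and metallothioneins 0 were higher and 3 lower by edgeR, DESeq2 and voom alike, with the same counts at an unadjusted p under 0.05. Sod1 measured 452, 595, 243 and 310.2 CPM in S1 to S4 and 244, 231, 212 and 216 CPM in S5 to S8. S3 lay within the Sirt6-KD range, so the groups overlapped although the gene was called (log2 fold change -0.83, edgeR adjusted p = 0.0357), and without S1 and S2 it was -0.28 and not called. Ccs, the copper chaperone of SOD1, had a log2 fold change of -0.88, also lost. Park7, which encodes DJ-1, a protein that protects against oxidants, fell 2.87-fold (log2 fold change -1.52, edgeR adjusted p = 0.00840) and stayed called without S1 and S2 (-0.82). On the spike-in scale Sod1 and Ccs were positive and Park7 was -0.24. Of 7 NADPH oxidases and other oxidant producers, 1 was higher, Xdh (xanthine dehydrogenase, log2 fold change 0.63), and 0 were lower (1 and 1 at an unadjusted p under 0.05, and 1 and 0 by DESeq2 and voom), and Xdh was not called without S1 and S2.

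**Figure D4:**
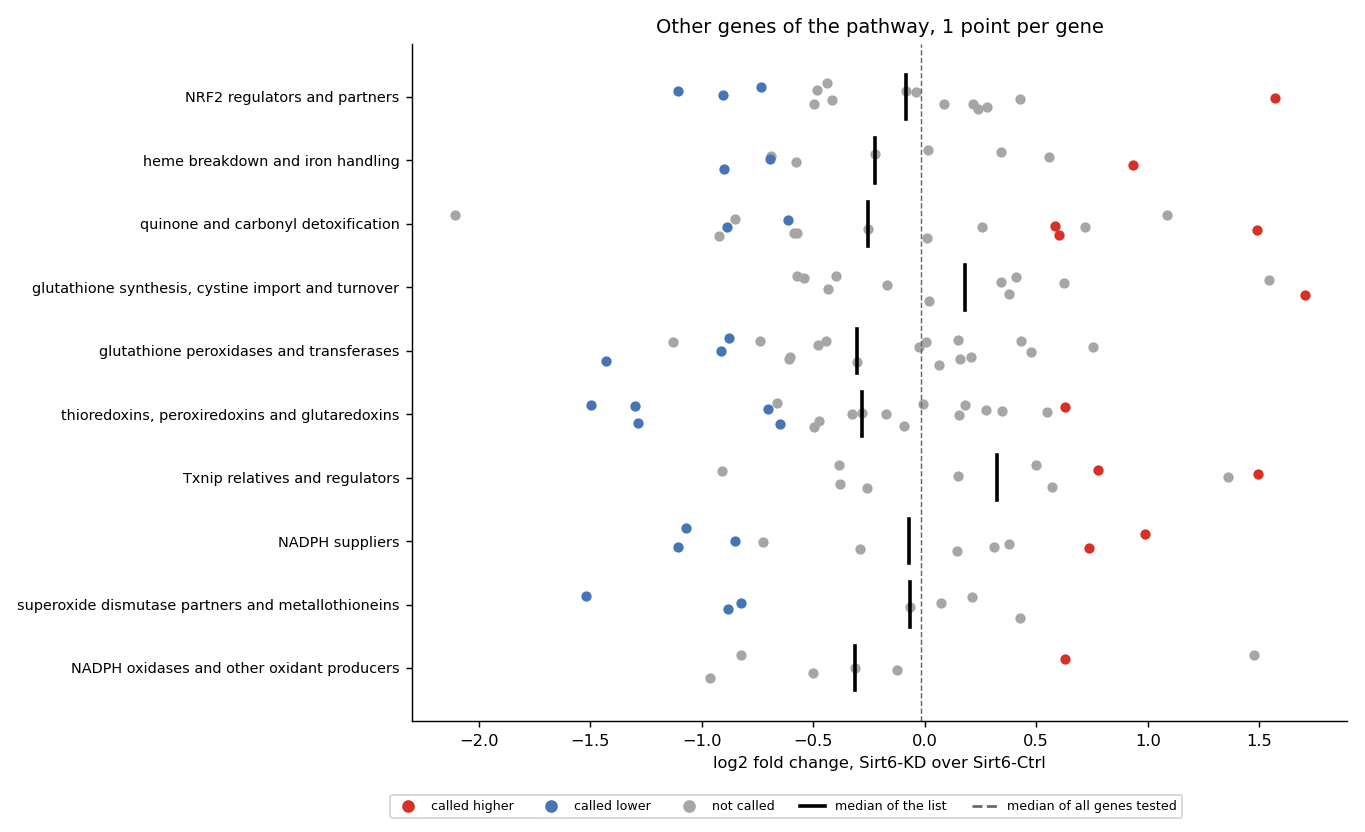
Differences on the log2 scale (horizontal axis, TMM, positive where Sirt6-KD is higher) of the 123 other genes tested, 1 point per gene in 10 lists (rows), red where called higher, blue where called lower and grey where not called, with the median of each list as a black bar and that of all genes as a dashed line. Called genes lie on both sides in 5 lists, those of glutathione peroxidases and of superoxide dismutase partners are all lower, and with spike-in scaling most of the blue points turn positive. All blue points stay below the median of all genes on that scale, 0.94.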

How the data were processed

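RNA-seq was made from 4 Sirt6-Ctrl and 4 Sirt6-KD libraries of primary rat NP cells. The deposited count table holds unnormalized counts in 32975 rows, of which 92 are ERCC spike-ins and the rest Ensembl genes. They also deposited a table of 13612 rows holding a normalized signal (counts divided by 1 size factor per library) and their own fold changes and p-values, of which only the gene names were used. The submitters' processing notes name Trimmomatic 0.36, STAR 2.5.2b, featureCounts, Subread 1.5.2, DESeq2 and the build Rnor_6.0. Strandedness is not given in the sources used here, so reads of overlapping antisense genes cannot be told apart. Counts were filtered with filterByExpr (13313 rows left, 63 of them spike-ins), scaled by TMM and tested with edgeR 4.0.16 in R 4.3.3 (its quasi-likelihood test, two-sided, unpaired), and p-values were adjusted by Benjamini-Hochberg over every row tested. An SE is the absolute log2 fold change over the square root of F, and intervals are 95%. Levels are CPM after TMM scaling, errors are SD, and the floor of 3 counts covers counting error only. limma 3.58.1 (voom), DESeq2 1.42.0, other scalings, filters and left-out libraries served as alternatives.

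The members and lists were chosen with earlier results of these data known. All members, Txn1, Prdx1, Sirt6 and up to 3 called genes per list and direction were named by rule. List genes named outside it are marked where they appear. A list symbol without an exact match is not analysed here. Levels were not compared between genes. No 2 libraries of a group agreed within sampling noise. Scripts were tested on simulated data.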

Additional observations from a re-analysis of the deposited data

Results flagged for a closer look

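Of 88 groups of 4 libraries examined (44 genes in each group of cells), 5 held 1 library so far from the others that its gap, as a share of the group's range, passed Dixon's critical value, and chance would give about 4. In Sirt6-Ctrl, S3 was the highest for Gclc, with a gap of 0.871 of the range, for Arrdc3, with 0.855, and for Mlxip, with 0.908. S4 was the lowest Sirt6-Ctrl library for Akr1b8, with 0.84 of the range. In Sirt6-KD, S8 was the highest for Txnip, with 0.873 of the range. For the 3 genes with S3 high, that library was also the Sirt6-Ctrl library nearest to Sirt6-KD.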

How the results depend on the processing

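With all settings but spike-in scaling the 5 called members kept their direction. With spike-in scaling edgeR called 0 members higher and 0 lower (6 and 0 at an unadjusted p under 0.05), and 2 and 0 genes of the lists. With glmTreat, which tests against 1.5-fold, 0 members were higher and 1 was lower (2 and 2 at an unadjusted p under 0.05), and 1 and 3 genes of the lists. Over all 13250 genes glmTreat called 92 higher and 185 lower. The unadjusted counts have no share of all genes beside them. Without S1 and S2, 1 member was higher and 2 were lower, and 5 list genes were higher and 8 lower. Over all 14177 genes tested in that fit, 810 were higher and 709 lower. Leaving out each library in turn gave 1 to 3 members higher, 2 to 3 lower, 2 to 13 list genes higher and 8 to 29 lower. Over all genes these fits called 445 to 1699 higher and 700 to 1913 lower. The correction for gene length, chosen after seeing the data because an earlier account of them used it and run for the 86.0% of genes with a length, left 4 list genes higher and 20 lower. It left 2 members higher and 3 lower. Signs turned with spike-in scaling for Keap1 (0.12), Gclm (0.36), Txnip (0.70), Rbx1 (0.24), Sqstm1 (0.38), Blvrb (0.37), Ftl1 (0.36), Akr1a1 (0.46), Cbr3 (0.13), Gpx1 (0.25), Gpx4 (0.27), Txn1 (0.40), Prdx1 (0.63), Taldo1 (0.037), Me1 (0.20), Sod1 (0.39) and Ccs (0.31). On that scale each of these genes still lay below the median of all genes, 0.94. Signs turned with the length correction for Hmox1 (-0.14), Txnrd1 (-0.32), Txnip (0.046) and Abcc4 (-0.0854). Leaving out single libraries moved Hmox1 from -0.15 to 0.14 and Txnip from -0.61 to 0.37. The cause was not tested. Calls were higher genes in 42.9% of cases with TMM, 28.0% with the length correction, 83.3% with spike-in scaling, 54.9% with voom and 53.3% without S1 and S2. Cat was called without S3, without S8 and with no fold threshold.

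No paired analysis was possible because no label ties a library of one group to a library of the other. With 4 libraries a group, differences inside the intervals of Nfe2l2, Hmox1, Txnrd1 and Txnip were not excluded.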
